A study of Mus musculus with 43 samples.

Results

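Irradiated mouse intestinal organoids that received vehicle were compared between day 11 (D11) and day 7 (D7) of culture by bulk RNA-seq. The 6 libraries, 3 per day, were chosen by their labels alone, out of 18 bulk RNA libraries and 43 samples in the series. Both groups were primary intestinal organoids, a culture of gut epithelium without other tissue, from wild-type (WT) C57BL/6 mice. Both were given 4 Gy on day 4 and vehicle on day 6 for 24 h. The comparison follows recovery after irradiation when no TGFB1, a growth factor of the wound response, is added. Used beside them were irradiated organoids given 2 ng/mL TGFB1 instead of vehicle and collected at D7 or D11, and non-irradiated vehicle organoids at D7, each with 3 libraries. The labels do not say whether the libraries of a group came from separate mice or cultures, so spreads and p-values cover these libraries and may be technical. No non-irradiated D11 organoids are analysed here. Days in culture, time since irradiation, time since vehicle and the table that holds the values therefore cannot be told apart.

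The lining of the small intestine renews itself from crypts, where stem cells marked by Lgr5 and Olfm4 divide beside Paneth cells that secrete antimicrobial proteins. Their daughters become absorptive enterocytes, which digest and take up nutrients with brush border enzymes, transporters and lipoproteins, or secretory goblet, enteroendocrine and tuft cells. Irradiation kills dividing crypt cells, and surviving cells rebuild the crypt, in part through a regenerative state marked by Clu, Ly6a and Anxa1.

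Gene levels were FPKM, fragments counted per transcript length and per total of fragments, and the read depth behind them is unknown. The tables of the 2 days were joined on gene symbol, and 11264 of 23951 genes had a mean of at least 1 FPKM over the 6 libraries. The tables were treated as normalised separately, which the labels do not state, so D11 and D7 are described as levels without a test. In addition, 3 libraries against 3 could not give an exact permutation p below 0.1. A gene is called higher or lower here when the mean log2(FPKM + 1) of the days differed by at least 1, a 2-fold change on that scale, and the 3 libraries of one day all lay above those of the other. Ratios are D11 minus D7 on the log2(FPKM + 1) scale, with the standard error from the 3 libraries of each day, and understate the change of low genes. Total FPKM was 551792 to 567534 at D7 and 470400 to 530773 at D11. Replicates were closer at D7, where the median coefficient of variation of 6342 genes was 3.14%, than at D11, where it was 8.15%. D11 replicate 3 stood apart in enterocyte genes, which made up 1.30% of its FPKM against 0.853% and 0.879% in the other D11 libraries and 2.72 to 2.85% at D7. Counts for the enterocyte lists, and ratios for their leading genes, are given with and without it.

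Markers of cells outside the epithelium were low on both days. Ptprc (leukocytes), Col1a1 (fibroblasts), Cdh5 and Kdr (endothelium) had at most 0.052 FPKM in any of the 6 libraries, and Cdh5 was listed at 0 in all of them. The 15 immune markers in the tables summed to 7.69 to 8.73 FPKM at D7 and 7.88 to 11.4 at D11, and the 14 mesenchymal markers to 5.44 to 6.34 and 5.75 to 7.56. The 9 endothelial markers summed to 5.15 to 5.75 at D7 and 14.2 to 15.95 at D11, of which Egfl7 made up 4.74 to 5.46 and 13.9 to 15.9. None of 7 neural markers reached the level filter. Epcam, the epithelial adhesion molecule, averaged 634 FPKM at D7 and 678 at D11. Keratin 18 (Krt18) was above its D7 libraries in every D11 library, and its ratio of 0.78 was the highest of 8 epithelial markers. Of these 8, 4 lay wholly higher at D11 and 3 wholly lower, of which Krt20 (-1.59) was called, and the median ratio was 0.02. Over all genes compared, 33.7% lay wholly higher and 33.1% wholly lower. In these bulk samples, fewer cells of a type and less RNA per cell cannot be told apart.

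At D11, 388 genes were called higher and 381 lower, 3.44% and 3.38% of the genes compared. The lower calls held more of the large differences, with 61 genes at least 4-fold lower against 22 at least 4-fold higher. The median ratio over all genes was 0.0037, and the ratios ran from -0.82 at percentile 5 to 0.87 at percentile 95. Scaling each library to the same total FPKM raised the median ratio to 0.13 and moved the split to 531 higher and 285 lower, so 65.1% of calls were higher instead of 50.5%. When each same-numbered pair of libraries had to differ 2-fold, 243 genes were higher and 253 lower. Without regard to size, 3796 genes (33.7%) lay wholly higher at D11 and 3734 (33.1%) wholly lower, so separation of the libraries on its own was common. Among genes that just met the 2-fold limit, Dpysl5 had a ratio of 1.0006 and Fas of -1.003, and just outside it Acta1 had 0.9999 and Bche -0.998. Of the compared genes, 26 were listed at 0 in all 3 libraries of one day, and 24 of these were microRNAs or other short structural RNAs, which this kind of library measures poorly.

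**Figure D1:**
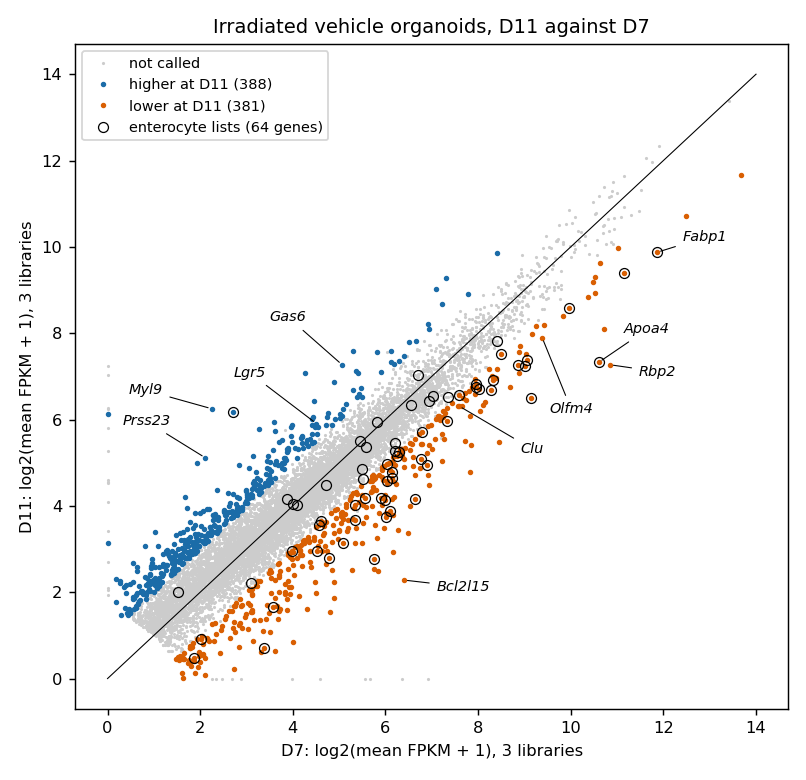
Mean level at D11 (vertical) against D7 (horizontal) for the 11264 genes compared, both as log2(mean FPKM + 1) of 3 libraries, with called genes coloured and the 64 genes of the brush border, lipid and transporter lists circled. Most circled genes lie below the line of equal levels, among them Fabp1 and Apoa4, and points on the axes, grey or coloured, are genes listed at or near 0 on one day.

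The strongest pattern lay in absorptive enterocytes, whose genes were lower at D11. Of 64 compared genes in the lists of brush border enzymes, lipid handling and nutrient transporters, 44 were called lower and 1 higher. Over all genes compared, 3.38% were called lower and 3.44% higher. The median ratio of the 64 was -1.26, against 0.0037 over all genes. By list, 12 of 20 brush border genes, 17 of 25 lipid genes and 15 of 19 transporters were lower. Without D11 replicate 3 these counts were 12, 18 and 17. With the 2-fold difference required in each same-numbered pair, they were 9, 11 and 8, and 28 for the lists together. Lipid genes Abca1, Pdk4 and Cyp4a10 and the bile acid transporter Slc10a2 were under the level filter. These lists were drawn up with earlier results of these data known, so their direction is a description.

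Most lipid handling genes were lower at D11. Fabp1, a fatty acid carrier of the cytoplasm, had 3614, 3677 and 3903 FPKM in the D7 libraries and 622, 885 and 1307 at D11. The ranges did not overlap and the D11 mean was 3.98-fold lower (ratio -2.06 ± 0.31, SE, n = 3 per day). Apoa4, an apolipoprotein of chylomicrons, had 1542, 1493 and 1646 FPKM at D7 and 107, 136 and 236 at D11 (ratio -3.36 ± 0.34). Each D11 library was below the lowest D7 library by a wide margin for both genes. Without D11 replicate 3, the ratios were -2.33 for Fabp1 and -3.68 for Apoa4. Fabp2, the second intestinal fatty acid carrier, averaged 564 ± 30.1 FPKM (SD) at D7 and 89.6 ± 15.6 at D11. Apoa1, Apoc2 and Apoc3, further lipoprotein components, had ratios of -1.88, -1.76 and -1.89. Mttp, which loads lipid onto apolipoprotein B, had a ratio of -1.61, and Apob itself -1.08. Enzymes that rebuild triglycerides were lower as well, with ratios of -1.38 for Mogat2, -1.17 for Dgat1 and -1.68 for Dgat2. Apob, Apoc2 and Dgat1 were not called when each pair had to differ 2-fold, with smallest pair differences of -0.88, -0.997 and -0.80. Creb3l3, a transcription factor that drives apolipoprotein genes, had a ratio of -2.04. Cholesterol uptake by Npc1l1 (-0.22), the lipid droplet coat Plin2 (0.11) and the fatty acid oxidation enzyme Cpt1a (0.04) were not called.

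Brush border enzymes were lower across substrates. Lactase (Lct) had 9.62, 8.57 and 10.1 FPKM at D7 and 0.352, 0.290 and 1.24 at D11, a ratio of -2.72 ± 0.26. Sucrase-isomaltase (Sis) averaged 529 ± 10.4 FPKM (SD) at D7 and 165 ± 48.3 at D11, and trehalase (Treh) 63.4 ± 1.71 and 12.4 ± 4.67. The peptidases Ggt1 and Enpep had ratios of -2.55 and -2.26, and Anpep -1.31. Alpi, intestinal alkaline phosphatase, had 1028, 958 and 1022 FPKM at D7 and 257, 310 and 574 at D11 (ratio -1.48 ± 0.35). The smallest difference within a same-numbered pair was -0.83 for Alpi, so it was not called when each pair had to differ 2-fold. Without D11 replicate 3, its ratio was -1.82. Structural parts of the brush border moved less. Villin (Vil1) had a ratio of -0.59, espin (Espn) -0.26 and the scaffold Ush1c 0.32, none of them called.

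Transporters for sugars, amino acids, ions and bile acids were lower at D11. Slc6a19, the main carrier of neutral amino acids, had 50.9, 52.7 and 54.0 FPKM at D7 and 4.53, 3.83 and 9.12 at D11, which did not overlap (ratio -3.05 ± 0.33, or -3.37 without D11 replicate 3). The peptide carrier Slc15a1 had a ratio of -1.95, the sodium-hydrogen exchanger Slc9a3 -1.99 and the chloride exchanger Slc26a3 -1.87. The sugar carriers Slc5a1, Slc2a2 and Slc2a5 had ratios of -1.02, -1.43 and -1.46. Both subunits of the basolateral bile acid exporter were lower, with -1.35 for Slc51a and -1.61 for Slc51b. With each pair required to differ 2-fold, Slc5a1, Slc2a2 and Slc51a lost the call, with smallest pair differences of -0.52, -0.99 and -0.97. The iron uptake carrier Slc11a2 was lower (-1.39), and lost the call in the same way (-0.90). The iron exporter Slc40a1 (-0.07) and the nucleoside carrier Slc28a2 (0.49) were not called.

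Short promoter sequences were searched because these enterocyte genes were lower together. HNF4 factors are nuclear receptors that drive enterocyte genes, and the motif CAAAGTCCA, a core HNF4 sequence, was looked for on both strands from 250 bases before to 50 after each RefSeq gene start (GRCm38.p6). The motif was chosen after promoters of these genes had been seen. RefSeq promoters were matched for 9027 of 11264 compared genes by symbol. It occurred in 13 of 302 promoters of genes lower at D11 (4.30%), in 1 of 304 of genes higher at D11 (0.329%), in 56 of all 9027 (0.620%) and in 0.475% of all 32851 promoters of the table. By list, it was in 2 of 17 brush border promoters, 0 of 18 lipid promoters and 1 of 17 transporter promoters, and 9 of the 13 lower genes were in no list. The TCF/LEF motif CTTTGAT, bound by the effectors of Wnt signalling, was in 3.31% of promoters of lower genes, 3.62% of higher genes, 3.10% of all compared and 3.73% of the table. The motifs share the letters CAAAG, read on opposite strands, so a site can match both. A match describes the sequence and is no evidence of binding. Hnf4a had a ratio of -0.02 and was not called, and Hnf4g had 92.3 ± 1.35 FPKM (SD) at D7 and 48.0 ± 5.24 at D11 (ratio -0.94), separate but short of 2-fold. The motif was in the promoters of 4 listed genes that were lower, namely Alpi at chr1:87101557-87101856 (minus strand), Cyp3a11 at chr5:145879805-145880104 (minus strand), Slc3a1 at chr17:85028097-85028396 (plus strand) and Treh at chr9:44672983-44673282 (plus strand). As with Alpi, the call of Slc3a1 was lost when each pair had to differ 2-fold (smallest pair difference -0.89). The motif begins 19 bases before the start in Alpi, 109 in Cyp3a11, 39 in Slc3a1 and 71 in Treh, where it lies on the opposite strand. They are shown 5′ to 3′ with the motif in capitals, to let its place before the start be seen.
Alpi: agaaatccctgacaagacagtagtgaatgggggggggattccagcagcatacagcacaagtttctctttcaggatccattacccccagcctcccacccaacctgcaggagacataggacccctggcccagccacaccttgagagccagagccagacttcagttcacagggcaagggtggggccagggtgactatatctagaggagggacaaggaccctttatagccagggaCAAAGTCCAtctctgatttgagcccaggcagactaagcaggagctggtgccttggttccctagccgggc
Cyp3a11: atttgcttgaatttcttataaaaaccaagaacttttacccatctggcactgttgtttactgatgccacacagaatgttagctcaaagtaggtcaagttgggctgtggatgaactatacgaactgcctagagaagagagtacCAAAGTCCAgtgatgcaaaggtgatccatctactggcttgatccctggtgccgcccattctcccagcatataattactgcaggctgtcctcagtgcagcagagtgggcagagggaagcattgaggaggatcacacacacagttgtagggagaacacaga
Slc3a1: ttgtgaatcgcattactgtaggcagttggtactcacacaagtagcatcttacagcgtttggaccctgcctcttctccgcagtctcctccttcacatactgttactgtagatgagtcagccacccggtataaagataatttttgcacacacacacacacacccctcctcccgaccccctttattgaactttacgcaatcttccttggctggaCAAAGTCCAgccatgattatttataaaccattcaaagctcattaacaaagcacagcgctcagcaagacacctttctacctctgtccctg
Treh: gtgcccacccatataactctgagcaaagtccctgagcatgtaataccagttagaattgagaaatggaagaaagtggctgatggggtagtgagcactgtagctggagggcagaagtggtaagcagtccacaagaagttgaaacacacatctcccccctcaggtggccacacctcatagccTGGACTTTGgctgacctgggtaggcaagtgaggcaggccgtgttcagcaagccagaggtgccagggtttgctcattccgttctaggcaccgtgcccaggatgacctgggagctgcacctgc

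Drug and retinoid metabolism, also a task of enterocytes, was lower at D11 for 10 of 27 genes and higher for 2. Of all genes compared, 3.38% were called lower and 3.44% higher. Cyp2c29, a cytochrome P450, had 63.8, 69.4 and 78.8 FPKM at D7 and 4.13, 4.96 and 10.9 at D11 (ratio -3.32 ± 0.38, or -3.69 without D11 replicate 3). Cyp3a11 had a ratio of -2.63 and the glucuronosyltransferase Ugt2b5 of -2.84. Aldh1a1, which makes retinoic acid, averaged 226 ± 8.27 FPKM at D7 and 26.6 ± 7.40 at D11 (ratio -3.07). Cyp2c55 went the other way, from 38.2, 36.4 and 41.0 FPKM to 89.5, 97.9 and 117, as did the carboxylesterase Ces1d (ratio 1.44). Of 8 compared villus tip genes, Krt20 (-1.59) and Creb3l3 were lower, and the list median was -0.09, which turned to 0.05 when libraries were scaled to the same total.

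The 10 genes with the largest lower ratios were led by Bcl2l15, a relative of the apoptosis regulator BCL2. It had 84.0, 83.2 and 82.8 FPKM at D7 and 2.38, 4.13 and 5.08 at D11 (ratio -4.16 ± 0.25). Rbp2, which carries retinol in enterocytes, had 1729, 1858 and 1923 FPKM at D7 and 96.5, 150 and 214 at D11 (ratio -3.65 ± 0.33). Bcmo1, which cleaves carotene to retinal, had a ratio of -3.28, so with Aldh1a1 there were 3 genes of vitamin A handling among the 10. The others were the actin-severing Scin (-3.37), Apoa4, the protease inhibitor Spink3 (-3.34), Cyp2c29, the sulfate carrier Slc13a1 (-3.32) and the inositol carrier Slc5a11 (-3.19). For each of the 10, no D11 library reached a D7 library.

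The 10 genes with the largest higher ratios had varied functions, and functions over all genes called higher were not compared. Myl9, a regulatory light chain of contractile myosin, had 2.71, 4.69 and 3.84 FPKM at D7 and 62.1, 97.8 and 65.7 at D11, 20.1-fold higher in the mean (ratio 4.00 ± 0.27). Of the 14 mesenchymal markers, 13 were under the level filter over the 6 libraries, among them the smooth muscle genes Des and Myh11. The 1 compared was wholly higher at D11 (ratio 0.40). Prss23, a secreted serine protease, had 3.51, 3.32 and 3.12 FPKM and then 35.6, 33.1 and 32.3 (ratio 3.01 ± 0.06). Gas6, a ligand of the TAM receptors, had 32.6, 32.2 and 32.4 FPKM at D7 and 157, 157 and 146 at D11 (ratio 2.21 ± 0.03). Each of these genes was at least 4-fold higher, and Myl9 varied more between libraries than Prss23 and Gas6. Also among the 10 largest higher ratios were the zymogen granule protein Sycn (2.81), the zinc finger protein Zfp467 (2.53), the laminin receptor Bcam (2.50), the ephrin Efna3 (2.34), the complement protease-like C1rl (2.24) and the membrane carrier Mfsd4 (2.11).

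**Figure D2:**
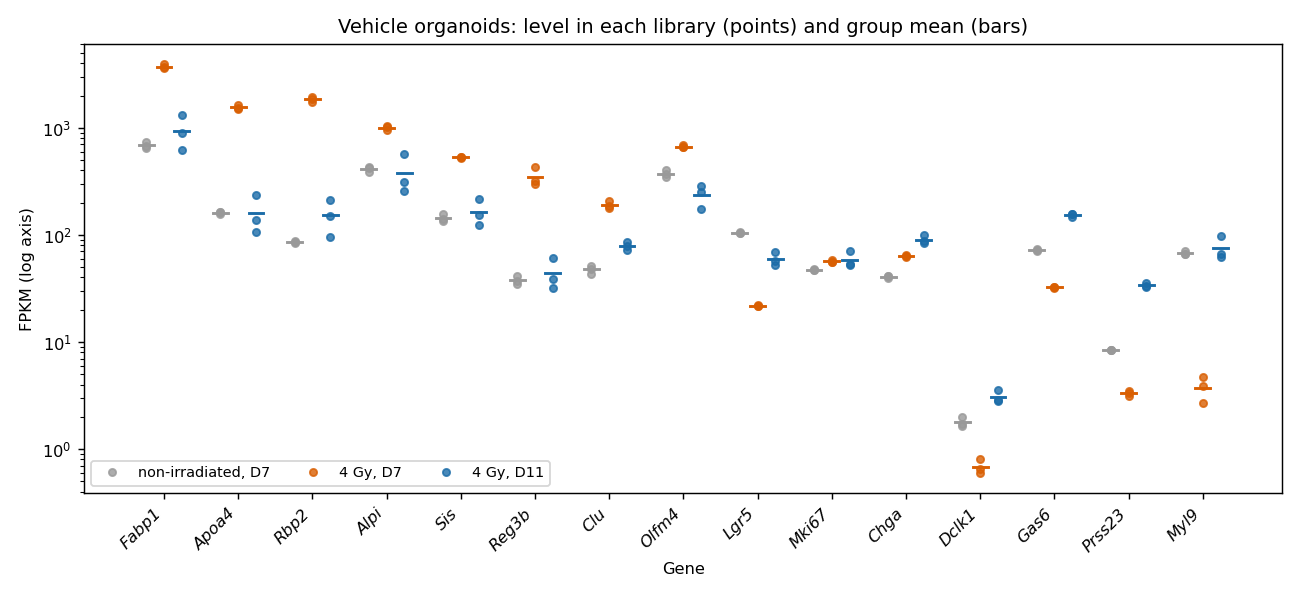
FPKM in each library (points, log axis) and group mean (bars) of 15 genes in vehicle organoids, for non-irradiated D7, irradiated D7 and irradiated D11, 3 libraries each. The D11 libraries of Fabp1, Apoa4, Rbp2, Sis, Reg3b and Clu lie below those of irradiated D7, Lgr5, Gas6, Prss23 and Myl9 lie above, and Mki67 overlaps.

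Stem cell markers moved in opposite directions. Lgr5, a receptor that strengthens Wnt signals in stem cells, had 21.9, 21.8 and 21.6 FPKM at D7 and 68.5, 56.5 and 52.1 at D11, 2.71-fold higher (ratio 1.39 ± 0.11). Olfm4, a secreted product of stem cells under Notch control, had 655, 658 and 685 FPKM at D7 and 288, 252 and 175 at D11, 2.80-fold lower (ratio -1.51 ± 0.22). No library overlapped between days for either gene. They were the only ones called among 16 stem cell genes, whose median ratio was 0.14. Ascl2, a transcription factor of stem cells, overlapped between days (ratio -0.23), as did Smoc2 (0.05) and Sox9 (0.02). Against 33.7% and 33.1% of all genes compared, 8 of 16 stem cell genes were wholly higher without regard to size and 2 wholly lower. Of these, Rgmb (0.81), Cdca7 (0.67), Prom1 (0.66) and the chloride cotransporter Slc12a2 (0.65) came closest to the limit.

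Of 10 Wnt target and feedback genes compared, Lgr5 was the one called. The feedback ligase Rnf43 had a ratio of 0.87, Tcf7 0.70, cyclin D1 (Ccnd1) 0.58 and Myc 0.45, while Axin2, a direct feedback target, had -0.41 and Sp5 -0.80. Among 10 Notch genes, the ligand Jag2 was called higher (ratio 1.07, smallest pair difference 0.90). The Notch target Hes1 had a ratio of 0.29 and Atoh1, which commits cells to secretory fates, -0.03. None of the 10 compared ligands and receptors of the EGF family was called, where Btc had the largest ratio (0.98). Among 22 intestinal transcription factors, Maf was called higher (1.19, smallest pair difference 0.98), and the gut identity factor Cdx2 had 0.20. Without D11 replicate 3, Maf had 0.99 and was not called.

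Few proliferation genes differed between the days. Mki67, a marker of cycling cells, had 56.4, 55.4 and 58.1 FPKM at D7 and 70.3, 52.4 and 53.1 at D11, which overlapped (ratio 0.04 ± 0.14). Of 20 mitosis genes none was called, their median ratio was 0.02 and their ratios ran from -0.50 (Birc5) to 0.52 (Cenpf). Among 20 replication genes the median was 0.28. The licensing factor Cdt1 (0.74) and the helicase subunit Mcm6 (0.46) were higher in every D11 library without reaching 2-fold. Cyclin E1 (Ccne1), which starts DNA replication, was the one called, with 15.0 FPKM at D7 and 6.64 at D11 (ratio -1.07), and its smallest pair difference was -0.91.

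Targets of p53, the factor that responds to DNA damage, leaned higher at D11, mostly by less than 2-fold. Of 23 p53 targets compared, 15 were wholly higher and 3 wholly lower, against 33.7% and 33.1% of all genes compared. Called were 3 higher and 1 lower, and the median ratio was 0.20. The cell cycle inhibitor Cdkn1a had 174, 172 and 173 FPKM at D7 and 129, 154 and 170 at D11 (ratio -0.21 ± 0.12), which is separate but small, and Mdm2, which degrades p53, had a ratio of -0.01. The stress cytokine Gdf15 had 10.9, 11.1 and 8.89 FPKM at D7 and 23.6, 35.0 and 25.7 at D11 (ratio 1.35). Phlda3, an inhibitor of AKT, had a ratio of 1.26 and the pro-apoptotic Bbc3 of 1.24. The death receptor Fas was at the limit of the call (-1.003), and lost it when D7 replicate 2 or 3 or D11 replicate 1 or 2 was left out (-0.96 to -0.99) and when each pair had to differ 2-fold (smallest pair difference -0.93).

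The regenerative state was mixed. Clu, a secreted chaperone that marks revival stem cells, had 186, 179 and 208 FPKM at D7 and 72.1, 78.2 and 85.4 at D11 (ratio -1.27 ± 0.10). Anxa8 (-1.12) and mesothelin (Msln, -1.09) were lower too, and with each pair required to differ 2-fold only Clu of these was called, with smallest pair differences of -0.76 and -0.84 for the others. Without D11 replicate 1 the ratios of Anxa8 and Msln were -0.81 and -0.95. Anxa1 had a ratio of -0.42, separate but small. Ly6a, also called Sca-1, had 30.1, 28.8 and 28.3 FPKM at D7 and 38.3, 50.5 and 52.7 at D11, which is separate and short of 2-fold (ratio 0.67 ± 0.14). Its relative Ly6e had 148, 143 and 153 FPKM and then 380, 433 and 416 (ratio 1.46 ± 0.06). Over 18 compared genes the median ratio was 0.01. Of 13 targets of the YAP coactivator, 9 were wholly higher at D11 and 2 wholly lower, against 33.7% and 33.1% of all genes compared. Their median ratio was 0.29. Tissue factor (F3) alone was called, at the limit (1.002, smallest pair difference 0.73), and Ankrd1 had -0.46. F3 was not called without D7 replicate 2 (0.97), D11 replicate 2 (0.91) or D11 replicate 3 (0.96).

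Within the TGFB pathway, the ligand and a target were higher although no TGFB1 had been added. Tgfb1 had 3.58, 2.90 and 3.81 FPKM at D7 and 12.3, 14.7 and 15.9 at D11 (ratio 1.79 ± 0.14). Tgfbi, a matrix protein induced by TGFB, had 2.49, 2.86 and 2.96 FPKM and then 8.57, 8.11 and 9.55 (ratio 1.37 ± 0.08). The other 14 of 16 compared genes were not called. The receptor Tgfbr2 had a ratio of 0.44, the inhibitory Smad7 -0.06 and the feedback gene Pmepa1 -0.63.

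Secretory lineages differed among themselves. Of 21 enteroendocrine genes, 4 were called higher and none lower, against 3.44% and 3.38% of all genes compared. Their median ratio was 0.55, and 14 were wholly higher and 3 wholly lower, against 33.7% and 33.1%. Tac1, the precursor of substance P, had 13.7, 13.1 and 14.1 FPKM at D7 and 36.8, 35.97 and 38.3 at D11 (ratio 1.38 ± 0.04). Chgb, a granule protein, averaged 120 ± 2.99 FPKM at D7 and 294 ± 7.04 at D11. Gcg, the precursor of GLP-1, had a ratio of 1.15, and Tph1, the enzyme that starts serotonin synthesis, 1.32 with a smallest pair difference of 0.85. Chga had 63.7, 65.3 and 62.5 FPKM and then 87.0, 98.7 and 83.4, separate with a ratio of 0.48. Gip (-0.46) and secretin (Sct, -0.80) lay lower, and Neurog3, which starts this lineage, had -0.47.

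Tuft cell genes were low but higher at D11, with 3 of 10 called higher, against 3.44% of all genes compared. Their median ratio was 0.75, and 8 were wholly higher and 0 wholly lower, against 33.7% and 33.1%. Dclk1, a tuft cell kinase, had 0.597, 0.650 and 0.799 FPKM at D7 and 3.57, 2.80 and 2.88 at D11 (ratio 1.28 ± 0.10). Alox5ap, needed for leukotriene synthesis, had 1.01, 1.47 and 1.74 FPKM and then 6.71, 6.69 and 6.72 (ratio 1.69). The lineage factor Pou2f3 (0.81) and the channel Trpm5 (0.89) were higher in every D11 library and not called. Goblet cell genes had no call among 16 and a median of -0.15, with 7 ratios above 0 and 9 below, from -0.98 to 0.66. Of the 16, 4 were wholly higher and 5 wholly lower, against 33.7% and 33.1% of all genes compared. Among those with ratios above 0, the goblet mucin Muc2 had 20.4, 20.1 and 20.4 FPKM at D7 and 32.3, 25.2 and 25.5 at D11 (ratio 0.42). Tff3 had a ratio of 0.59. Paneth cell genes leaned lower, with a median of -0.51 and 14 of 17 ratios below 0. Lyz1, their lysozyme, had 1766, 1942 and 2048 FPKM at D7 and 1211, 1038 and 948 at D11 (ratio -0.85). Only Mptx2 was called, with 58.5, 62.1 and 58.0 FPKM and then 18.5, 16.5 and 10.8 (ratio -1.93).

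Antimicrobial genes split by gene. The lectins Reg3b, Reg1 and Reg3a were lower, with ratios of -3.00, -2.69 and -2.54. Reg3b had 299, 320 and 431 FPKM at D7 and 38.5, 32.2 and 60.8 at D11. Their relative Reg3g lay the other way, with 191, 188 and 204 FPKM and then 281, 268 and 547 (ratio 0.83 ± 0.33), of which D11 replicate 3 was far above the other D11 libraries. These lectins are similar in sequence, so reads may be shared between them. The cytokine Il18 was lower (ratio -2.25). The oxidant-producing enzymes Nos2 (1.48), Duox2 (1.16) and the Duox2 partner Duoxa2 (1.28, smallest pair difference 0.70) were higher. Of 17 interferon and antigen presentation genes, Bst2 (1.37) and the immunoproteasome subunit Psmb9 (1.09) were called higher, with smallest pair differences of 0.93 and 0.76. Without D11 replicate 2, Psmb9 had 0.98.

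Most cholesterol synthesis and amino acid stress genes were lower by small amounts, and hypoxia and glycolysis genes went both ways. In cholesterol synthesis 19 of 22 compared genes were lower in every D11 library than at D7, against 33.1% of all genes compared. Only mevalonate kinase (Mvk, -1.18) was called, and the median ratio was -0.58. Insig1, a sterol sensor, had a ratio of -0.95. Of 21 genes of amino acid and endoplasmic reticulum stress, 14 were wholly lower, against the same 33.1% of all genes. Chac1 was called (-1.05, smallest pair difference -0.87, and -0.97 without D11 replicate 2). Against oxidative stress, the glutathione peroxidase Gpx2 had 903, 910 and 938 FPKM at D7 and 286, 378 and 342 at D11 (ratio -1.46), and Osgin1 had -1.32. Among 26 hypoxia and glycolysis genes, Adm (1.49), Ndufa4l2 (1.42) and Aldoc (1.20) were higher, the median was -0.07, or 0.06 with equal totals, and Ldha had -0.77. Adm and Aldoc lost the call when each pair had to differ 2-fold, with smallest pair differences of 0.82 and 0.92. Hmgcs1 was listed at 0 in every library, and Gapdh, an abundant enzyme in every cell, had at most 0.937 FPKM, so neither is read here.

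**Figure D3:**
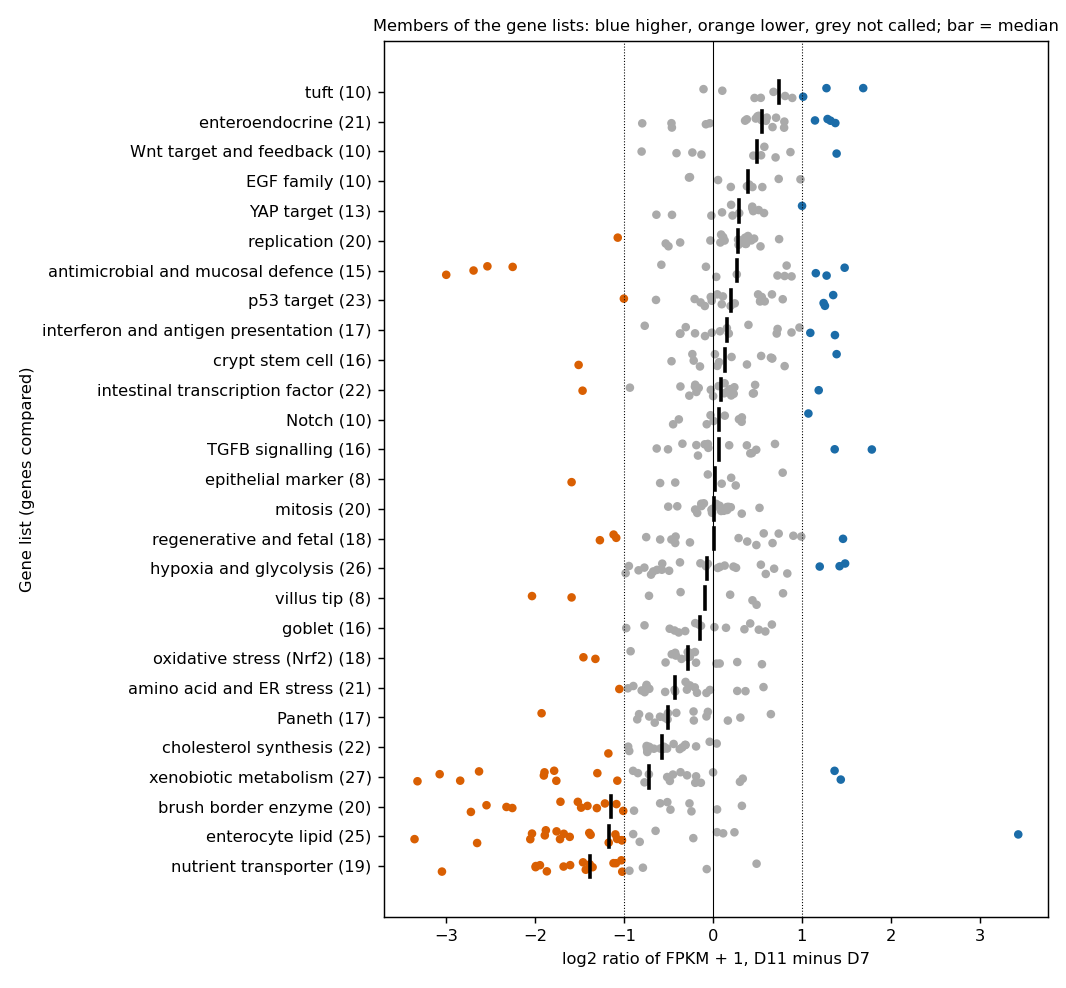
Ratio of each compared member of 27 gene lists (points, log2 of FPKM + 1, D11 minus D7), with called genes in blue and orange, the list median as a bar and dotted lines at the 2-fold limit. The transporter, lipid and brush border lists have the lowest medians (-1.39, -1.17 and -1.15), the tuft and enteroendocrine lists the highest (0.75 and 0.55), and mitosis lies at 0.02.

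Levels in non-irradiated D7 organoids place these differences. Since each pair of these comparisons shares a group of libraries, values are given side by side only. For Apoa4 the group means were 160 FPKM without irradiation, 1560 at irradiated D7 and 160 at irradiated D11, and for Fabp1 683, 3731 and 938. For Rbp2 they were 85.8, 1837 and 154, and for Reg3b 37.6, 350 and 43.9. Olfm4 had 373, 666 and 238 FPKM, Lgr5 105, 21.8 and 59.0, and Clu 47.7, 191 and 78.6. In the same order, Myl9 had 67.8, 3.75 and 75.2 FPKM and Efna3 68.8, 11.1 and 60.1. Prss23 had 8.44, 3.31 and 33.7 FPKM and Gas6 72.1, 32.4 and 153, so both were above the non-irradiated mean at D11. For Apoa4, Fabp1, Rbp2 and Reg3b, irradiated D7 was the highest of the 3 means and irradiated D11 lay nearer to the non-irradiated mean. Of the 3 enterocyte lists together, 42 of 65 genes were higher and 3 lower in irradiated than non-irradiated D7 organoids, where 8.02% of all 11235 genes were called higher and 7.42% lower. Between irradiated D11 and non-irradiated D7, 5 of 62 were higher and 4 lower, where 5.65% and 5.69% of 11351 genes were called. Other lists lay below the non-irradiated level on both days. Of 26 hypoxia and glycolysis genes, 16 were lower at irradiated D7 and 17 at irradiated D11 than at non-irradiated D7. Of the amino acid and stress list, 9 of 22 were lower at irradiated D7 and 12 of 22 at D11. Tuft genes had 5 of 10 higher at D11 than at non-irradiated D7.

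The same days were compared in organoids given TGFB1. There 719 genes were higher and 970 lower at D11, 6.32% and 8.52% of 11381. Over the 10943 genes compared in both, the ratios with vehicle and with TGFB1 correlated weakly (Pearson 0.308, Spearman 0.231, across genes, which are not independent replicates). Both ratios span the same tables. Of genes lower with vehicle, 242 were lower with TGFB1, 63.5% of the vehicle calls and 24.9% of the TGFB1 calls. Of genes higher with vehicle, 33 were higher with TGFB1, 8.51% and 4.59% of each, and 38 were lower.

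Whether the difference between days itself differed between vehicle and TGFB1 was tested with limma over the 12 irradiated libraries, in a day by TGFB1 interaction from which a factor common to a table cancels. The interaction was called for 7387 of 11456 genes (64.5%) at a Benjamini-Hochberg adjusted p under 0.05, so a call is common. All 10 genes with the largest higher ratio with vehicle had a called interaction, and each had the smaller or opposite ratio with TGFB1. These 10 and the 10 with the largest lower ratio were picked by the vehicle ratio, which is part of the interaction. The choice itself favours called interactions and less extreme ratios with TGFB1. Myl9 stayed between 1.08 and 2.88 FPKM in all 6 TGFB1 libraries (interaction -4.47, limma adjusted p 1.35e-07). Of the 10 genes with the largest lower ratio, 7 had a called interaction, of which 5 had a less negative ratio with TGFB1. Apoa4 and Bcmo1 had more negative ratios with TGFB1. Mean Apoa4 was 3509 FPKM at D7 and 171 at D11 with TGFB1, against 1560 and 160 with vehicle. Mean Bcmo1 was 51.6 and 1.42 FPKM with TGFB1, against 88.6 and 9.28 with vehicle. The Apoa4 interaction lost the call with quantile normalisation (-0.42) or equal totals (-0.73). Rbp2, Slc13a1 and Spink3 were not called, and Rbp2 had nearly the same ratio with TGFB1 (-3.62, interaction 0.02 ± 0.29).

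Proliferation was the plainest difference between the treatments. Mki67 had 11.3, 12.9 and 9.90 FPKM at D7 with TGFB1 and 51.3, 56.2 and 65.2 at D11, so its interaction was 2.21 (limma adjusted p 1.21e-07). All 20 mitosis genes were higher at D11 than D7 with TGFB1 (median 1.90), against none with vehicle. Of 20 replication genes, 19 were higher with TGFB1, where 6.32% of all genes compared were called higher and 8.52% lower. Olfm4 was higher at D11 with TGFB1, with 252, 269 and 211 FPKM at D7 and 510, 449 and 392 at D11 (interaction 2.39, limma adjusted p 7.74e-07). Clu, at 3839 to 4154 FPKM at D7 with TGFB1 and 3563 to 4352 at D11, overlapped between days there (ratio -0.01, interaction 1.26, limma adjusted p 2.01e-06). The Lgr5 ratio was 1.61 with TGFB1 and its interaction was not called (0.22 ± 0.16, limma adjusted p 0.241), though without D11 TGFB1 replicate 3 it was (0.35, limma adjusted p 0.042). Enteroendocrine genes lay the other way, with 13 of 18 lower at D11 with TGFB1, against 8.52% of all genes, and none higher. Tgfb1 itself had a ratio of -1.28 with TGFB1. In the enterocyte lists 55 of 65 genes were lower with TGFB1, against the same 8.52%, and none higher. Their median was -2.06. Of the 83 genes chosen by the naming rule (the largest ratios, a panel and called list members), 61 had a called interaction and 22 did not. Apart from the panel, the 83 were picked by their vehicle ratio, which is part of the interaction.

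**Figure D4:**
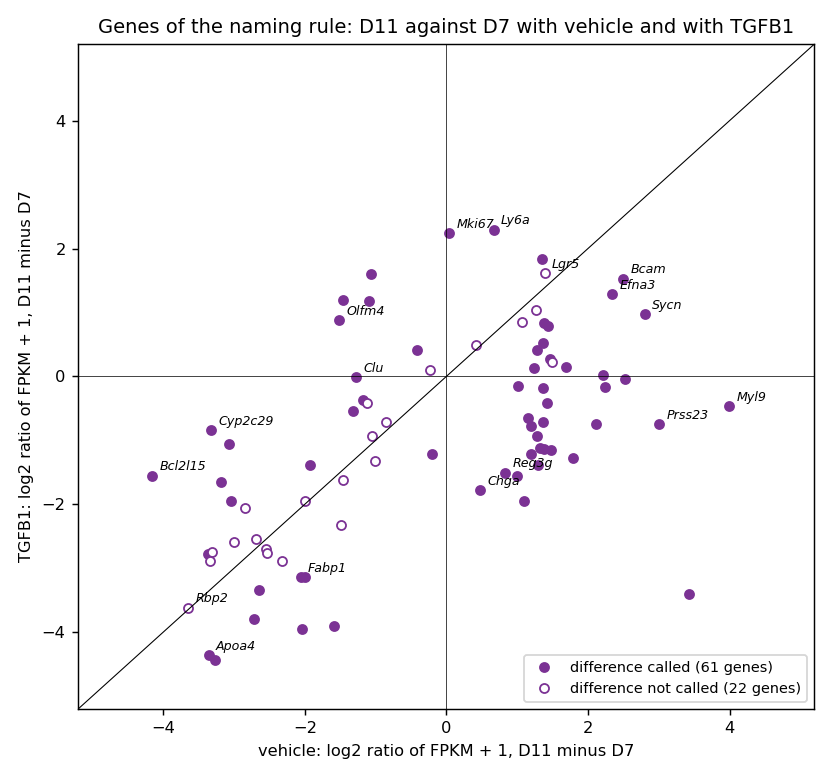
Ratio D11 minus D7 of the 83 genes of the naming rule with TGFB1 (vertical) against vehicle (horizontal), log2 of FPKM + 1, with filled points for the 61 genes whose interaction was called by limma and open points for 22 not called. Fabp1, Apoa4 and Rbp2 are lower with both treatments and Mki67 is near 0 with vehicle and 2.24 with TGFB1.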

How the data were processed

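The bulk RNA libraries were made, per the labels' protocols, from RNA extracted with the QIAGEN RNeasy Micro kit and an in-house kit of BGI. The authors deposited gene levels as FPKM in 3 tables, 1 per condition with 6 libraries each. The submitters' processing notes name TopHat2 2.1.0, Cuffnorm 2.2.1, Cuffdiff 2.2.1, STAR 2.7.10a, STARsolo and Salmon 1.4 and the builds mm9 and GRCm39 (mm39), but without saying which of them made these tables. Equal scaling between tables cannot be assumed, and 0 columns were left unmapped.

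Here the tables were joined on gene symbol and log2(FPKM + 1) was compared as described with the results, in Python 3.11.15 with pandas 2.3.3. The day by TGFB1 interaction was fitted with limma 3.58.1 in R 4.3.3 (trend, robust, genes averaging 1 FPKM or more over 12 libraries, two-sided, Benjamini-Hochberg adjusted over all 11456 genes). The scripts were tested on simulated data. Alternatives were other pseudocounts, filters, scalings and fold limits, a replicate block, and leaving out each library.

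Genes named are the 10 highest and 10 lowest ratios among called genes with at least 10 FPKM in the higher group, a panel of 18 genes, and up to 3 called members in each direction of each of 31 gene lists, plus members needed to show what was not called. Some of these genes are not reported here by name, and counts include them. The members and lists were chosen with earlier results of these data known. Same-numbered D7 and D11 vehicle libraries deviated together from their group means (Pearson 0.167, 0.240 and 0.166 across genes, against -0.203 to 0.0230 for other pairs). Deviations within a group cancel out over its libraries, so the other pairs are no independent baseline. Values that required each same-numbered pair to differ 2-fold are therefore given, as a precaution, where they change a call. The numbers come from the labels, which do not say what they mark. Promoters were RefSeq sequences of GRCm38.p6, used for their letters only. ATAC-seq and single-cell files were not analysed here.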

Additional observations from a re-analysis of the deposited data

Results flagged for a closer look

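For 12 of 18 panel genes the difference between D11 and D7 differed between vehicle and TGFB1 by the limma interaction, given below as the ratio with TGFB1 minus the ratio with vehicle, on the log2(FPKM + 1) scale with adjusted p. With 64.5% of all genes called by the same test, calls in the panel are common.

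The interaction was above 0 for the proliferation marker Mki67 (2.21, limma adjusted p 1.21e-07), for Olfm4 (2.39, limma adjusted p 7.74e-07), and for the regenerative markers Ly6a (1.63, limma adjusted p 1.13e-06), Clu (1.26, limma adjusted p 2.01e-06) and Anxa1 (0.83, limma adjusted p 1.47e-05). Mki67 and Ly6a had ratios of 2.24 and 2.30 with TGFB1. Anxa1 and Olfm4 had opposite signs, lower at D11 with vehicle and higher with TGFB1.

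It was below 0 for the enteroendocrine marker Chga (-2.27, limma adjusted p 2.22e-09), the lectin Reg3g (-2.34, limma adjusted p 9.63e-05), the tuft marker Dclk1 (-0.86, limma adjusted p 4.93e-05) and Ndufa4l2, a hypoxia target (-1.84, limma adjusted p 0.00631). With TGFB1, Chga and Reg3g had ratios of -1.78 and -1.51, so both were lower at D11 there and higher with vehicle. Cdkn1a (-1.01, limma adjusted p 1.06e-05), Fabp1 (-1.09, limma adjusted p 0.0029) and Apoa4 (-1.01, limma adjusted p 0.0134) were lower at D11 with both treatments, and further with TGFB1. With quantile normalisation the interactions of Fabp1 (-0.26) and Apoa4 (-0.42) were not called, nor was that of Apoa4 with equal totals (-0.73) or of Ndufa4l2 with a pseudocount of 0.1 (-2.53).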

How the results depend on the processing

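Against 388 genes higher, pseudocounts of 0.1 and 5 gave 637 and 118, a mean of at least 5 FPKM 239, and fold limits of 1.5 and 4 gave 1242 and 22. Against 381 lower, a pseudocount of 5 gave 227 and fold limits of 1.5 and 4 gave 1031 and 61. The replicate block, with each same-numbered pair 2-fold apart, gave 243 higher and 253 lower, 11 lipid genes and 8 transporters lower. At a fold limit of 4, 4 brush border genes, 4 lipid genes and 1 transporter were lower. The median ratio was -0.037 with a mean of at least 5 FPKM and 0.13 with equal totals. Leaving out 1 library gave 383 to 418 genes higher and 342 to 444 lower. Of 74 called genes of the naming rule, 24 lost the call in at least 1 of 18 settings, 21 of them with a pseudocount of 5, 16 under the replicate block and 4 with equal totals, and no ratio of a called gene changed sign.

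For the interaction, leaving out 1 library gave 6937 to 7715 calls and no filter 8331, and the other settings lay within 1.5 times the 7387. Same-numbered vehicle and TGFB1 libraries did not deviate together at D11 (Pearson -0.0931, -0.0268 and 0.0964), at D7 the values were 0.085, 0.231 and 0.0283, and with the replicate block the count was 7396. Scaling to equal totals moved the calls above and below 0 from 3607 and 3780 to 5124 and 2451. Of the panel values under other settings, 354 stayed on their side of the threshold, 15 passed it and 4 lost it. Those lost were Fabp1 (-0.26) and Apoa4 (-0.42) with quantile normalisation, Apoa4 with equal totals (-0.73), and Ndufa4l2 with a pseudocount of 0.1 (-2.53). FPKM keep no read depth, so the counting error of low genes such as Dclk1 is unknown. The count of promoters with a gained or lost ATAC peak was not run, since peak positions and gene starts were on different builds.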

Other observations

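Several abundant genes outside the lists, named after their values were seen, differed between the days. The metallothioneins Mt1 and Mt2, which bind zinc and copper, were the most abundant called genes. Mt1 had 12611, 13393 and 13301 FPKM at D7 and 2737, 4467 and 2498 at D11 (ratio -2.07), with a mean of 1027 FPKM in non-irradiated D7 organoids. Mt2 had 5431, 6035 and 5889 FPKM at D7 and 1578, 2330 and 1146 at D11 (ratio -1.84). Both were lower at D11 with TGFB1 too, with ratios of -2.27 and -2.04. Guca2b, a peptide hormone of enterocytes, had a ratio of -1.58, and Lypd8, which keeps bacteria off the epithelium, -1.61. The Paneth cell defensin Defa4 had 1243, 1567 and 1581 FPKM at D7 and 632, 650 and 603 at D11 (ratio -1.21, smallest pair difference -0.97), but defensin genes are near-identical and can share reads.

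Among abundant genes that were higher, Txnip, an inhibitor of thioredoxin and of glucose uptake, had 160, 154 and 157 FPKM at D7 and 669, 636 and 564 at D11 (ratio 1.98), and a ratio of -1.09 with TGFB1. Sepp1, a selenium transport protein, had 338, 327 and 351 FPKM at D7 and 900, 904 and 997 at D11 (ratio 1.46), and -2.87 with TGFB1. Ribosomal protein genes made up 4.47 to 4.70% of FPKM at D7, 6.26 to 7.38% at D11 and 5.44 to 5.60% in non-irradiated D7 organoids.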
